A study of Mus musculus with 3 samples.

Results

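The colony-stimulating factors and their receptors are 8 genes, Csf1, Csf2, Csf3, Csf1r, Csf3r, Csf2ra, Csf2rb and Csf2rb2, taken by symbol from the 28692 genes of the deposited matrices. All 8 were found, and all 8 had unique molecular identifiers (UMIs, each counting 1 captured transcript) in every library. The 3 libraries form 1 group without a control: cells of the 2208L mammary tumour line had been injected into the mammary gland of mice, tumours were taken after 4 weeks at 0.7 to 1 cm, and live CD45+ cells negative for the dye DAPI were sorted for droplet sequencing. CD45 is the surface protein shared by leukocytes. The labels give no strain, sex or age of the mice and do not say whether the libraries came from separate animals, so p-values measure the spread between these libraries, which may be technical. The series title concerns neutrophils high in ICAM1.

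Colony-stimulating factors are secreted cytokines that govern the output, survival and activity of myeloid cells. CSF1 acts through CSF1R, a receptor tyrosine kinase on which most macrophages depend, and interleukin-34 is its other ligand. CSF3, also called G-CSF, acts through CSF3R and drives the making and release of neutrophils, while CSF2, also called GM-CSF, binds a receptor made of the specific alpha chain CSF2RA and the beta chain CSF2RB, which also serves interleukin-3 and interleukin-5. Mice carry an additional beta chain, CSF2RB2, which pairs with the interleukin-3 alpha chain. The CSF3R and CSF2 receptors signal through JAK2 and STAT proteins.

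After filtering, 14226 barcodes with 9768586, 15224194 and 9362622 UMIs in libraries 1 to 3 were placed in 11 classes by standard markers, without using any of the 8 genes. The classes compared were neutrophil-like (6152 barcodes), T-cell-like (3093), macrophage-like (1905), monocyte-like (566), NK-cell-like (520), and, named after dendritic cell (DC) types, cDC2-like (365), pDC-like (209, plasmacytoid) and cDC1-like (140). A further 273 barcodes were epithelial-like, although CD45+ cells had been sorted. The labels give the cell type as tumor. All 10 neutrophil markers, all 11 macrophage markers and all 9 T-cell markers were highest in their own class, but 4 of 8 monocyte markers were not highest in the monocyte-like class. Barcodes of the neutrophil-like class had a median of 900 UMIs, against 4449 in the macrophage-like class and 1404 in the T-cell-like class, and 91 barcode sequences occurred in more than 1 library. Migratory-DC-like (93) and B-or-plasma-cell-like (77) barcodes were too few in library 3 for a test, and 732 barcodes of mixed markers and 101 unnamed ones were kept out of the classes. Levels are UMIs per 1000000 UMIs of the class in a library (CPM). Tests are edgeR's quasi-likelihood test on summed UMIs with the adjusted p taken over 9413 genes, and a call is an adjusted p under 0.05. In tests against the mean of other groups, that mean is of log2 levels, so groups with few UMIs of a gene pull it down.

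Csf1, the ligand of CSF1R, was concentrated in neutrophil-like barcodes. It measured 394, 379 and 394 CPM in the neutrophil-like class of libraries 1 to 3 (389 ± 8.63, SD, n = 3), against 15.5, 10.7 and 13.3 CPM in the macrophage-like class. The libraries lay close together, and no library of any other class compared came near the neutrophil-like range. Of 2726 Csf1 UMIs in named classes, 2454 (90.02%) belonged to the neutrophil-like class. The next levels were 19.6 ± 4.46 CPM in the epithelial-like class, 15.6 ± 6.14 in the pDC-like class and 13.2 ± 2.38 in the macrophage-like class; the pDC-like libraries overlapped both others. Against the mean of the other 8 classes, Csf1 was higher in the neutrophil-like class by 5.60 ± 0.14 on the log2 scale (SE; edgeR adjusted p = 1.96e-31), a 48.3-fold difference. At equal depth, with each barcode thinned to 600 UMIs, Csf1 was detected in 17.9% of neutrophil-like barcodes, against 0.512% of macrophage-like and 0.577% of T-cell-like ones. Before thinning the shares were 25.4%, 5.003% and 1.19%, and 771 neutrophil-like barcodes were too shallow to thin. Within the macrophage-like class the level was uneven, with 34.9 CPM in the subcluster led by Ccl8 and Folr2, against 9.61 in that led by Mmp12 and Arg1 and 6.77 in that led by Tmem119.

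Csf2, the ligand whose product GM-CSF activates myeloid cells, was found in lymphocytes. The T-cell-like class held 110 of 115 UMIs, with 27.7, 19.1 and 17.4 CPM in the 3 libraries, and the NK-cell-like class held the other 5, with 5.32, 5.50 and 5.71 CPM. All 3 libraries were higher in the T-cell-like class, and the remaining 9 named classes had no Csf2 UMI. With the floor set at 3 UMIs over a class, Csf2 was at least 44.5-fold higher in the T-cell-like than in the neutrophil-like class and at least 67.5-fold higher than in the macrophage-like class. It was called higher in the T-cell-like class against the mean of the others (edgeR adjusted p = 9.43e-13), as were 27.8% of genes in that comparison, and also in the NK-cell-like class (adjusted p = 0.000825). Csf2 passed the filter on low counts only through the T-cell-like libraries, where it was high, so these p-values add no support beyond the counts. Csf2 was detected in 2.67% of T-cell-like barcodes, and in 0.857% after thinning.

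Most of the Csf2 among T-cell-like barcodes lay in the subset named from gamma-delta T-cell markers, led by Il17a and Trdc. That subset (812 barcodes) held 62 UMIs, with 46.8, 48.5 and 36.1 CPM in the libraries. The CD8 subset (1393 barcodes) held 1 UMI, at 2.21 CPM in library 3. The regulatory subset (617 barcodes, with Cd40lg and Cd4 also among its leading genes) held 5, all in library 2 at 9.52 CPM. The gamma-delta libraries were all above every library of these other subsets, which were the ones tested. Against the mean of the other subsets, Csf2 was higher in the gamma-delta subset (edgeR adjusted p = 8.90e-09 over 5101 genes, where 11.6% of genes were called higher) and lower in the CD8 subset (adjusted p = 0.000525, where 10.9% were called lower). Among the subsets tested, only the gamma-delta libraries, where Csf2 was high, carried the gene past the filter on low counts. These p-values therefore add no support beyond the counts, and the CD8 value rests on 1 UMI. The CD8 call was lost without library 2 and when barcodes with few genes or more mitochondrial UMIs were left out. A small subcluster of 125 barcodes led by Ccl1 and Xcl1 held another 37 UMIs, 17 of them from the 15 barcodes of library 1, 20 from the 106 of library 2 and 0 from the 4 of library 3. Its level was 510 CPM in library 1 and 68.9 CPM in library 2, above every gamma-delta library, but it had too few barcodes for a test.

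**Figure D1:**
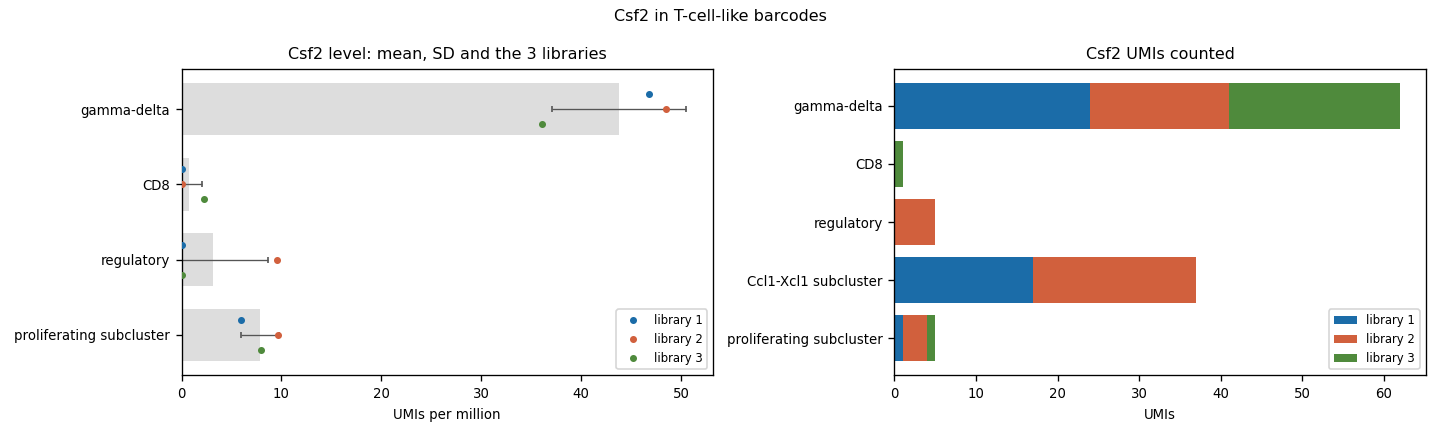
Csf2 in subsets of T-cell-like barcodes: the left panel gives the level in CPM of the subset (bar, mean of the 3 libraries; line, SD; points, libraries), and the right panel the UMIs counted, stacked by library. Of the 4 sets on the left, the gamma-delta subset is highest at 36.1 to 48.5; the Ccl1-Xcl1 subcluster, with 4 barcodes in library 3, is shown only on the right at 37 UMIs, and its level in libraries 1 and 2 (510 and 68.9 CPM) was higher still.

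Csf3, the ligand of CSF3R, was the scarcest of the 8 genes and was found mainly in the few epithelial-like barcodes of this CD45+ sort. Whether these barcodes represent the epithelium of the tumour was not tested. They held 40 of 44 UMIs, with 25.6, 9.65 and 10.0 CPM in the libraries. The neutrophil-like class held 1 UMI, and the macrophage-like and T-cell-like classes none. Library 1 was the highest of the epithelial-like values, and the monocyte-like class held the other 3 UMIs, all in library 2 at 3.03 CPM. Against a floor of 3 UMIs, Csf3 was at least 47.3-fold higher in the epithelial-like than in the macrophage-like class and at least 25.7-fold higher than in the T-cell-like class. The gene did not pass the filter on low counts, so the planned test gave no value. Without the filter it was called higher in the epithelial-like class (edgeR adjusted p = 1.98e-18). Detection was in 6.60% of epithelial-like barcodes, 18 barcodes in all, whose class had the greatest depth (median 8743 UMIs), and in none after thinning.

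**Figure D2:**
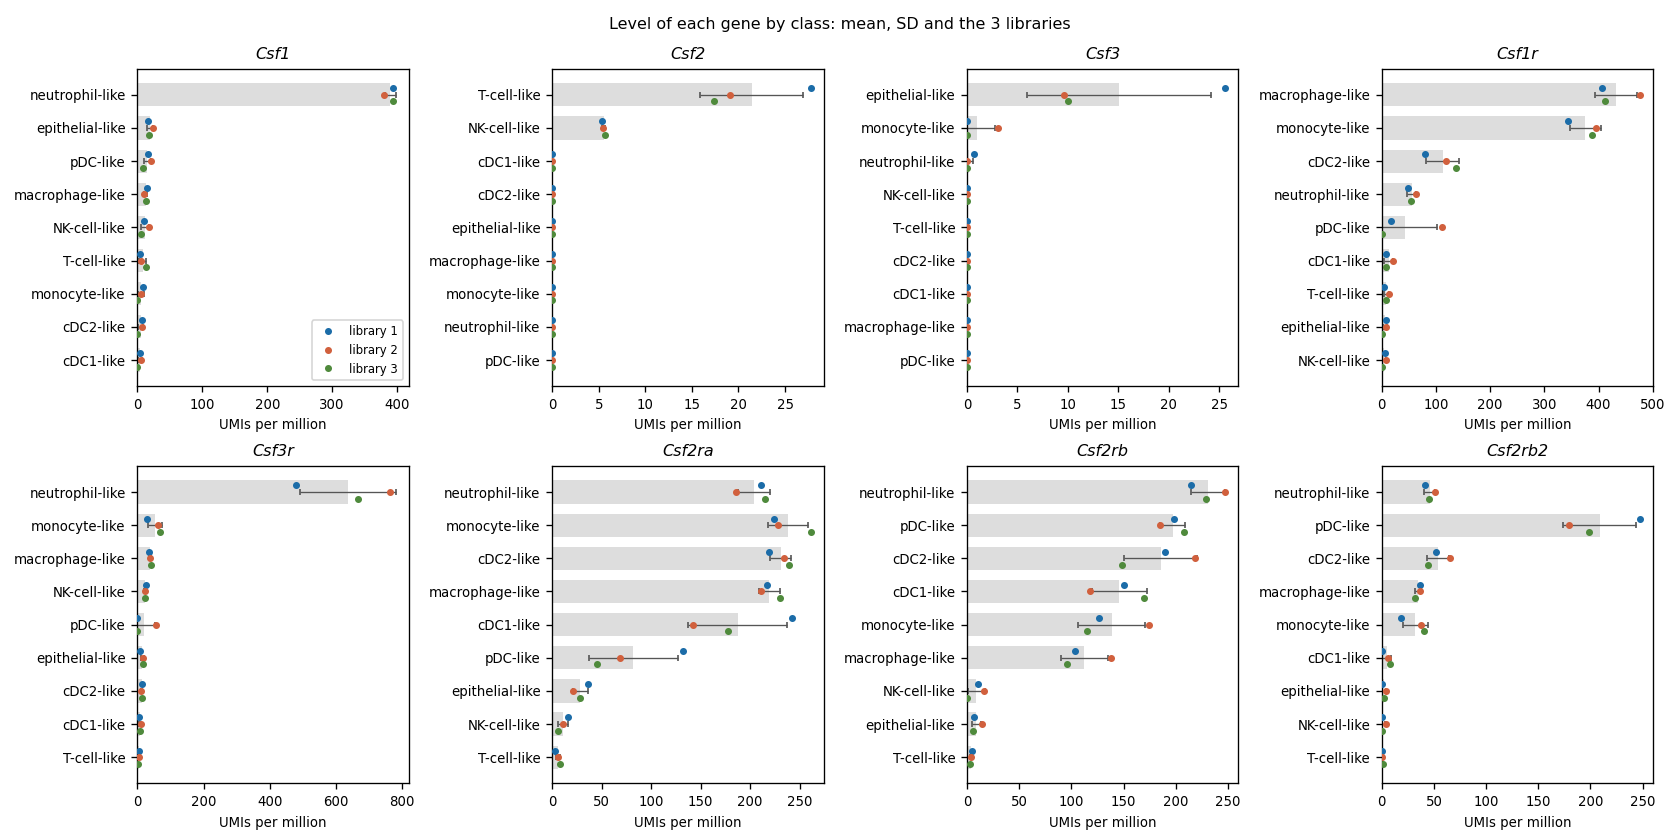
Level of each of the 8 genes in the 9 classes compared, in CPM, with its own linear axis in each panel (bar, mean of the 3 libraries; line, SD; points, libraries). Csf1 and Csf3r stand out in the neutrophil-like class, at 389 and 635, Csf1r in the macrophage-like and monocyte-like classes, at 431 and 375, and Csf2rb2 in the pDC-like class, at 209.

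Csf1r, the receptor for CSF1, marked the mononuclear phagocytes. It measured 406, 476 and 412 CPM in the macrophage-like class (431 ± 38.7, SD, n = 3) and 343, 395 and 388 CPM in the monocyte-like class (375 ± 28.1). Values of the other classes were all lower, with 79.1, 119 and 138 CPM in the cDC2-like class and 47.7, 63.9 and 53.9 CPM in the neutrophil-like class. The macrophage-like class held 4179 of 5603 UMIs (74.6%). Csf1r was higher there than in the mean of the other classes by 3.84 ± 0.15 on the log2 scale (SE; edgeR adjusted p = 4.12e-24), a 14.4-fold difference, in a comparison that called 27.1% of genes higher. Without library 2 it was 4.61, or 24.5-fold. The macrophage-like and monocyte-like classes did not differ beyond their error (log2 difference 0.19 ± 0.19, adjusted p = 0.570). After thinning, 23.5% of macrophage-like and 19.5% of monocyte-like barcodes had a Csf1r UMI, against 2.87% of neutrophil-like and 0.350% of T-cell-like ones. Before thinning these shares were 80.04%, 66.5%, 5.18% and 1.19%.

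Among macrophage-like subclusters, Csf1r averaged 557 CPM in the one led by Ccl8 and Folr2. It was 443 in that led by Tmem119, 390 in the proliferating one and 365 in that led by Mmp12 and Arg1. The Ccl8 and Folr2 subcluster also had the highest mean CPM of Csf1 and of Csf3r among these. Its Csf3r was 70.0 CPM, against 33.1, 20.8 and 34.4 in the others in the same order, and the cause was not tested. In the pDC-like class Csf1r was carried by library 2, at 16.5, 111 and 0 CPM, and 68 of its 69 UMIs came from that library. The neutrophil-like level was called higher than the mean of the other classes by 0.80 ± 0.21 (edgeR adjusted p = 0.000821), and by 1.47 without library 2. That mean is of log2 levels, and by mean CPM the macrophage-like, monocyte-like and cDC2-like classes were higher. Per 1000 UMIs of the macrophage genes C1qa, C1qb and C1qc, the neutrophil-like class had 367 ± 64.8 Csf1r UMIs, against 33.1 ± 7.58 in the macrophage-like class. All 3 libraries showed the higher proportion in the neutrophil-like class.

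Csf3r, the G-CSF receptor, was the most abundant of the 8 in neutrophil-like barcodes by UMIs, with 4110 of 4732 UMIs (86.9%). It measured 478, 761 and 667 CPM in the neutrophil-like class (635 ± 144, SD, n = 3), against 28.0, 63.7 and 67.1 CPM in the monocyte-like class and 35.1, 38.4 and 41.2 CPM in the macrophage-like class. The neutrophil-like and other libraries did not overlap, and library 1 was the lowest in the neutrophil-like class. The difference from the mean of the other classes was 5.37 ± 0.13 on the log2 scale (SE; edgeR adjusted p = 3.28e-32), or 41.4-fold. Without library 2 it was 6.27, or 77.03-fold. After thinning, 29.7% of neutrophil-like barcodes had a Csf3r UMI, against 2.50% of monocyte-like, 2.24% of macrophage-like and 0.205% of T-cell-like ones. Before thinning the shares were 41.1%, 16.03%, 15.6% and 0.850%. The macrophage-like and monocyte-like classes were not called different from each other (log2 -0.48 ± 0.25, adjusted p = 0.195).

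The lower Csf3r of macrophage-like barcodes was set beside 2 neutrophil genes, S100a8 and S100a9. Per 1000 of their UMIs, Csf3r had 81.6 ± 4.02 UMIs in the macrophage-like class and 107 ± 67.5 in the monocyte-like class, against 11.5 ± 1.97 in the neutrophil-like class. T-cell-like barcodes had 17.3 ± 6.14, close to the neutrophil-like proportion. Macrophage-like Csf3r was called higher than the mean of the other classes by 0.52 ± 0.18 (edgeR adjusted p = 0.0195). That mean is of log2 levels, and by mean CPM the neutrophil-like and monocyte-like classes were higher. The call was lost with DESeq2 (adjusted p = 0.190), with stricter barcode filters (0.116), without the library block (0.0786) and without library 1 (0.0967). Without library 2 the log2 value was 1.66.

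Csf1 and Csf3r had similar profiles over the 9 classes (Pearson r = 0.89 of log2 levels, as a description), and their promoters are shown for that reason, with matches to the kappaB decamer in capitals. Sequences are RefSeq's, build GRCm38.p6, on the gene's strand. Distances are counted from the RefSeq start, which for Csf3r lies 109 bases inside the gene as GENCODE annotates it.
Csf1 promoter, chr3:107760470-107760719, minus strand: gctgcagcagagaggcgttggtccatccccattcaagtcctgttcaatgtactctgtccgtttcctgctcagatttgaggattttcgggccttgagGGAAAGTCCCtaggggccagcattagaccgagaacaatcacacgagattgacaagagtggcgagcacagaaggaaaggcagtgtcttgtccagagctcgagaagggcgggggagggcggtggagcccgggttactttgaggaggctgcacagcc
Csf3r promoter, chr4:126024409-126024549, plus strand: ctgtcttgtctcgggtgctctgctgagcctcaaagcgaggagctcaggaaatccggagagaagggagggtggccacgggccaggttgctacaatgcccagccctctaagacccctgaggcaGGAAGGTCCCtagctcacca
The last 109 of the 250 bases searched for Csf3r thus lie within the GENCODE gene and are not shown, and the printed stretch is the 141 bases before it. On either strand the kappaB decamer matched at 154 bases before the Csf1 start and at 129 before the Csf3r start, and it is found in 7.25% of 32851 promoters. The PU.1 core GAGGAA (23.3% of promoters) and the C/EBP core GCAAT (23.1%) had no match in the Csf1 window and 1 each in the Csf3r window, at 86 and 9 bases before the RefSeq start and so within the GENCODE gene. A match describes letters and is not a measured site.

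Csf2ra, the alpha chain that confers GM-CSF binding, was spread evenly over the myeloid classes. The neutrophil-like class had 211, 186 and 215 CPM (204 ± 15.8, SD, n = 3), against 224, 228 and 261 CPM in the monocyte-like class, 219, 234 and 239 in the cDC2-like class and 217, 211 and 231 in the macrophage-like class. The macrophage-like range overlapped the neutrophil-like one, the monocyte-like and cDC2-like libraries lay slightly above it, and the cDC1-like class, at 242, 142 and 177 CPM, spanned it. Set against the neutrophil-like class, none of the 4 was called different, with log2 differences over the neutrophil-like class of -0.02 ± 0.15 for monocyte-like (adjusted p = 0.937), -0.04 ± 0.15 for cDC2-like (0.826), -0.16 ± 0.13 for macrophage-like (0.299) and -0.25 ± 0.18 for cDC1-like barcodes (0.263). These values are after TMM scaling, which lowers them relative to the CPM. With library totals, a comparison chosen after seeing the data, they were 0.23, 0.19, 0.11 and -0.13 in the same order, again with no call. The pDC-like level was lower at 82.0 ± 45.0 CPM, and T-cell-like barcodes had 5.60 ± 2.15. Against the mean of the other classes, Csf2ra was 1.92 ± 0.11 higher in the neutrophil-like class on the log2 scale (edgeR adjusted p = 1.09e-18). After thinning, the gene was detected in 11.3% of neutrophil-like, 11.8% of monocyte-like and 12.1% of macrophage-like barcodes, against 0.339% of T-cell-like ones. Before thinning the shares, in the same order of classes, were 17.8%, 50.3%, 58.04% and 0.924%.

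Csf2rb, the shared beta chain, had its highest mean level in the neutrophil-like class among those tested. It had 215, 248 and 229 CPM in the neutrophil-like class (231 ± 16.3, SD, n = 3), against 198, 184 and 208 in the pDC-like class, 190, 218 and 149 in the cDC2-like class and 103, 138 and 95.7 in the macrophage-like class. The pDC-like libraries lay just under the neutrophil-like ones, 1 cDC2-like library lay within their range, and the macrophage-like libraries were well below. The 93 migratory-DC-like barcodes, which were not tested, stood above all of these at 405, 300 and 359 CPM. Csf2rb was higher in the neutrophil-like class by 2.55 ± 0.12 on the log2 scale against the mean of the other classes (edgeR adjusted p = 2.79e-22) and by 0.80 ± 0.19 against the pDC-like class (adjusted p = 0.000662). With library totals the difference from the pDC-like class was 0.35 ± 0.20 and was not called (adjusted p = 0.148). For every 100 Csf2ra UMIs there were 114 ± 16.9 Csf2rb UMIs in the neutrophil-like class, against 58.9 ± 16.4 in the monocyte-like class and 51.6 ± 12.6 in the macrophage-like class. The neutrophil-like libraries lay above all libraries of both other classes in this proportion, while the monocyte-like and macrophage-like libraries overlapped.

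Csf2rb2, the beta chain found in mice beside Csf2rb, had its highest mean level in the pDC-like class. The neutrophil-like class had 41.2, 51.3 and 45.4 CPM (46.0 ± 5.07, SD, n = 3), against 248, 180 and 199 in the pDC-like class, 51.5, 65.0 and 44.0 in the cDC2-like class and 37.0, 36.2 and 31.8 in the macrophage-like class. All pDC-like libraries were above every library of the other classes compared. The 93 migratory-DC-like barcodes, which were not tested, came next at 151, 122 and 134 CPM. Csf2rb2 was higher in the pDC-like class than in the mean of the others by 4.19 ± 0.24 on the log2 scale (edgeR adjusted p = 2.66e-18), in a comparison that called 12.4% of genes higher, and Csf2rb by 1.65 ± 0.19 (adjusted p = 3.38e-09), while Csf2ra was at -0.21 ± 0.23 (adjusted p = 0.651). Without library 2 the Csf2rb2 value was 4.98. The neutrophil-like class was below the pDC-like class (log2 -1.56 ± 0.21, adjusted p = 7.23e-08) and above the mean of the other classes (log2 2.43 ± 0.20, adjusted p = 3.73e-14; 3.04 without library 2). The cDC2-like and neutrophil-like classes were not called different (log2 0.02 ± 0.21, adjusted p = 0.964).

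The beta chains are near-identical neighbours on chromosome 15, with 20.03 kb between them and opposite orientation. Their coding sequences (897 codons for Csf2rb and 879 for Csf2rb2, GENCODE vM21) are 95.2% identical over 2631 aligned bases, with 66 gap positions and an identical run of up to 242 bases. Of all stretches of 90 bases, 8.43% of those in the Csf2rb transcript and 8.47% of those in the Csf2rb2 transcript occur in the other. Reads from such stretches cannot be placed, and how many reads came from them was not measured, so both levels are uncertain. The stretch of 60 coding bases with the most differences, 13, is shown as an example of where the genes differ, with the differing bases in capitals. Whether reads covered it was not measured.
Csf2rb, coding positions 304 to 363: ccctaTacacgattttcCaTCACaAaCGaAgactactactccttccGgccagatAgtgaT
Csf2rb2, coding positions 307 to 366: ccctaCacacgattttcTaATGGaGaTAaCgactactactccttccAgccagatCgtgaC
Csf2rb2 made up 16.6 ± 0.542% of the beta-chain UMIs of the neutrophil-like class, against 51.3 ± 3.73% in the pDC-like class, 24.0 ± 2.92% in the macrophage-like class and 22.4 ± 0.879% in the cDC2-like class. The cDC1-like class had only 3.01 ± 2.64%, from 3 of 101 UMIs. These shares did not overlap between the pDC-like, neutrophil-like and cDC1-like classes.

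**Figure D3:**
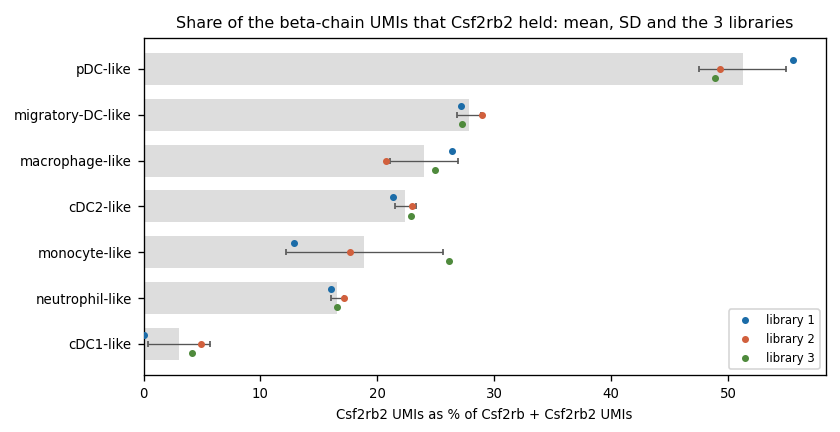
Csf2rb2 UMIs as a percentage of the UMIs of Csf2rb and Csf2rb2 together, in classes with at least 100 such UMIs (bar, mean of the 3 libraries; line, SD; points, libraries). The pDC-like class stands apart at 48.9 to 55.6%, and the neutrophil-like libraries lie at 16.1 to 17.2%.

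Of the 7 genes that passed the filter on low counts, 6 were called higher in the neutrophil-like class than in the mean of the other classes. Of these 7, 0 were called lower, and Csf2 was not called. Over all genes 34.8% were called higher and 27.1% lower in that comparison. The mean is of log2 levels, and by mean CPM Csf1r, Csf2ra and Csf2rb2 were each higher in another class tested. Set directly against the macrophage-like class, 4 were higher in the neutrophil-like class, namely Csf1 (log2 5.16 ± 0.20), Csf3r (4.31 ± 0.19), Csf2rb (1.32 ± 0.14) and Csf2rb2 (0.66 ± 0.17, edgeR adjusted p = 0.000938). Csf1r alone was lower (-2.70 ± 0.20, adjusted p = 2.86e-15), and Csf2ra and Csf2 were not called. The background was 31.9% of genes higher and 33.3% lower. The Csf2rb2 call was lost when a barcode needed 500 genes and no more than 5% mitochondrial counts (log2 0.33, adjusted p = 0.164).

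The neutrophil-like class split into 6 states, named from marker sets of which at least 2 genes had to pass. The larger were Siglecf and Ltc4s (2280 barcodes), Cxcl3, Hilpda and Hcar2 (1516), and Retnlg (1203). The smaller were Pdpn, Plau and Pla1a (537), interferon-induced genes (472), and Hspa1a and Mgarp (144). The Retnlg state passed 2 of its 5 markers, and Ngp and Camp led its genes. Each state was compared with the mean of the other states over 3493 genes. Of 36 pairs of a gene and a state, 21 were called, 12 higher and 9 lower. The background differed by state, with calls for 41.4% of genes in the Retnlg state, 20.9% in the interferon state, 54.9% in the Cxcl3 state, 27.2% in the Pdpn state, 62.0% in the Siglecf state and 30.5% in the Hspa1a state. Scaling by library totals in place of TMM moved the median of all genes by -0.50 (Cxcl3 state) to 0.43 (Siglecf state) on the log2 scale, and 14 of the 21 pairs were called the same way under both. The values that follow are of those 14 unless stated.

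Csf3r was highest in the Retnlg state, named for a gene typical of neutrophils in blood and marrow. It had 843, 1133 and 1119 CPM there (1032 ± 164, SD, n = 3), against 718 ± 223 in the interferon state, 582 ± 57.1 in the Siglecf state, 479 ± 75.8 in the Cxcl3 state, 394 ± 86.6 in the Pdpn state and 199 ± 22.6 in the Hspa1a state. Library 1 was the lowest in 5 of the 6 states, and only the interferon state overlapped the Retnlg libraries. The log2 difference was 1.49 ± 0.09 in the Retnlg state (edgeR adjusted p = 1.51e-19) and 0.76 ± 0.12 in the interferon state (6.03e-07), and Csf3r was lower in the Pdpn state (-0.70 ± 0.14, 6.97e-05) and the Hspa1a state (-1.75 ± 0.23, 1.29e-08). In the Cxcl3 state the sign depended on the scaling, at 0.35 with TMM (adjusted p = 0.00285) and -0.14 with library totals (0.212).

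Csf1 followed another order. The interferon state had 621, 611 and 661 CPM (631 ± 26.6) and the Pdpn state 620, 610 and 603 CPM (611 ± 8.49), against 436 ± 49.2 in the Cxcl3 state, 409 ± 31.1 in the Retnlg state, 220 ± 23.6 in the Siglecf state and 148 ± 89.5 in the Hspa1a state. The interferon and Pdpn libraries overlapped each other and were above all other states. Csf1 was higher in the interferon state by 1.03 ± 0.12 (edgeR adjusted p = 8.05e-10), in the Cxcl3 state by 0.73 ± 0.10 (1.85e-08) and in the Pdpn state by 0.61 ± 0.12 (0.000128), where library totals gave 0.23 for the Cxcl3 and 0.86 for the Pdpn state. It was lower in the Siglecf state (-1.29 ± 0.12, 2.61e-13) and the Hspa1a state (-1.53 ± 0.25, 1.63e-06). The Pdpn state thus had high Csf1 with low Csf3r, and the interferon state had both genes raised.

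**Figure D4:**
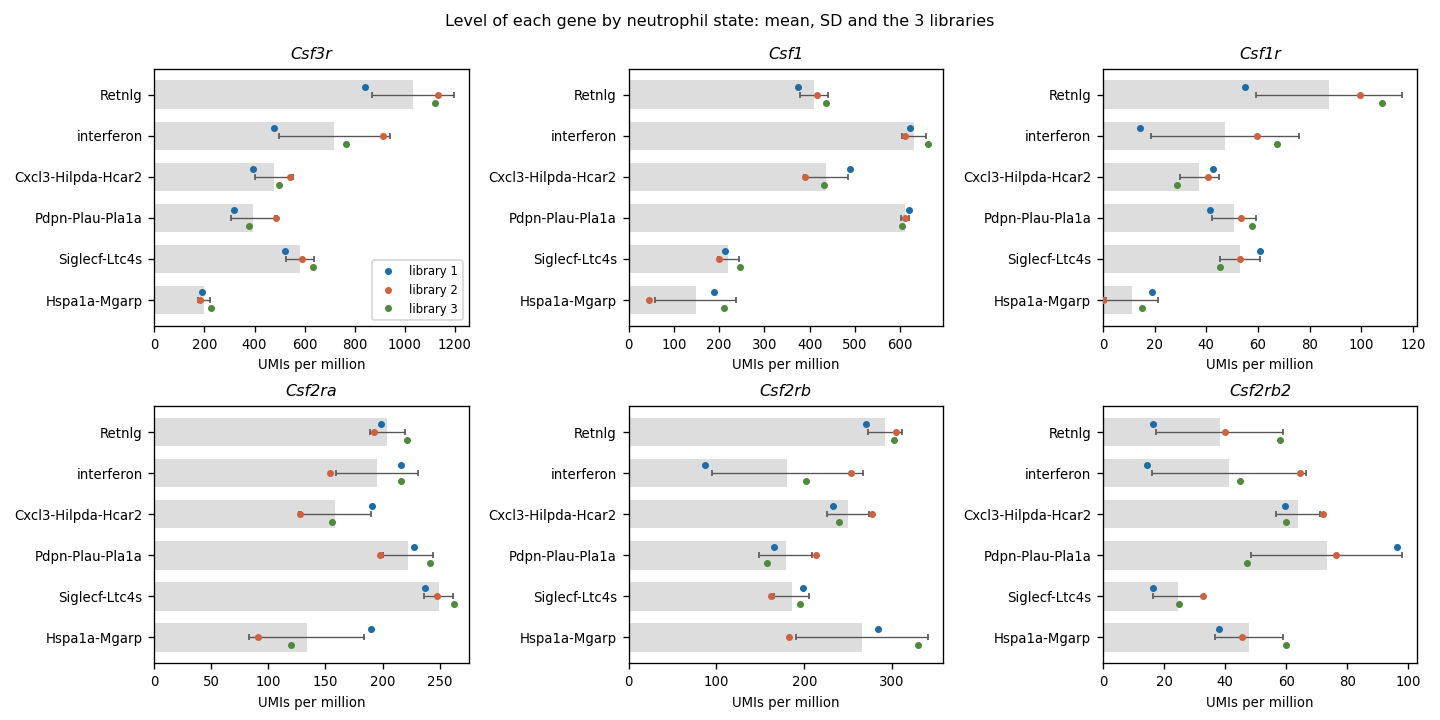
Level of 6 genes in the 6 neutrophil states, in CPM of the state (bar, mean of the 3 libraries; line, SD; points, libraries). Csf3r is highest in the Retnlg state at 1032 and Csf1 in the interferon and Pdpn states at 631 and 611; the Hspa1a state has the fewest barcodes, 144.

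The other receptor chains had fewer calls. Csf1r had 55.1, 99.5 and 108 CPM in the Retnlg state (log2 1.56 ± 0.24, edgeR adjusted p = 2.17e-07), against 50.8 ± 8.47 in the Pdpn state and 53.0 ± 7.76 in the Siglecf state. Library 1 of the Retnlg state lay within the range of other states. Csf2rb was higher in the Retnlg state, at 292 ± 19.3 CPM (log2 0.69 ± 0.13, adjusted p = 8.41e-06), and lower in the Siglecf state, at 186 ± 20.2 CPM (-0.74 ± 0.13, 1.36e-06), and these libraries did not overlap. The Siglecf state was not the lowest by mean CPM, as the Pdpn state had 179 ± 30.3 and the interferon state 181 ± 85.5. Csf2rb2 was higher in the Cxcl3 state, at 59.5, 72.1 and 59.96 CPM (log2 0.97 ± 0.21, adjusted p = 0.000132), and lower in the Siglecf state, at 16.2, 32.8 and 24.8 CPM (-1.49 ± 0.27, 5.62e-06). The Pdpn state had a higher mean Csf2rb2 level than the Cxcl3 state, at 96.5, 76.2 and 47.2 CPM, but was not called (log2 0.47, edgeR adjusted p = 0.287). Csf2ra had no pair called the same way under both scalings; its means lay between 134 CPM in the Hspa1a state and 249 CPM in the Siglecf state. With library totals alone, Csf2ra was called higher in the Siglecf state (0.51, adjusted p = 0.000166) and lower in the Cxcl3 state (-0.37, 0.0117), and Csf3r was called higher in the Siglecf state (0.28, 0.00986; -0.15 with TMM). The pairs called with TMM alone were Csf1 and Csf2ra in the Retnlg state, Csf2rb in the Cxcl3 and Pdpn states, Csf3r in the Cxcl3 state, and Csf1r and Csf2ra in the Hspa1a state.

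Genes that act with these receptors were taken as 4 lists, and each was counted in the neutrophil-like class against the mean of the other classes. The median of all genes there was 0.02 on the log2 scale. Among genes induced by JAK and STAT signalling or serving survival, 7 of 8 were higher and 1 lower, with a list median of 2.33. These were led by the kinase Pim1 (3.33 ± 0.11), the survival factors Mcl1 (2.54 ± 0.09) and Bcl2l1 (2.87 ± 0.12) and the cytokine Osm (3.50 ± 0.14), while Socs2, a feedback inhibitor, was the lower one. Of 14 signalling genes, 9 were higher, 2 lower and 3 not called, with a list median of 0.71. Over all genes 34.8% were higher and 27.1% lower in this comparison. The phosphatase Ptpn6 (1.98 ± 0.10) and the kinases Lyn (1.69 ± 0.13) and Jak2 (1.73 ± 0.14) were among the higher ones. Stat5b was called higher but not with library totals (adjusted p = 0.125).

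Of 9 transcription factors known for control of these receptor genes, 4 were higher, 3 lower and 2 not called, with a list median of 1.30. Cebpe, a factor of granulocyte maturation, was 5.65 ± 0.37 higher, Cebpb 4.10 ± 0.11 and Spi1, which encodes PU.1, 2.92 ± 0.09, while Irf8, which favours monocytes and DCs, was lower at -4.23 ± 0.28. Of 5 other ligands and chains, 2 passed the filter on low counts. Il3ra, the interleukin-3 alpha chain, was lower at -2.88 ± 0.41. Il34, the other ligand of CSF1R, was not called, but its error could not be estimated, so nothing is concluded about it. Against the macrophage-like class alone, 7 of the 8 feedback and survival genes were higher and 1 lower, 4 of the 14 signalling genes were higher and 3 lower, and 5 of the 9 transcription factors were higher and 4 lower. Over all genes 31.9% were higher and 33.3% lower there.

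**Figure D5:**
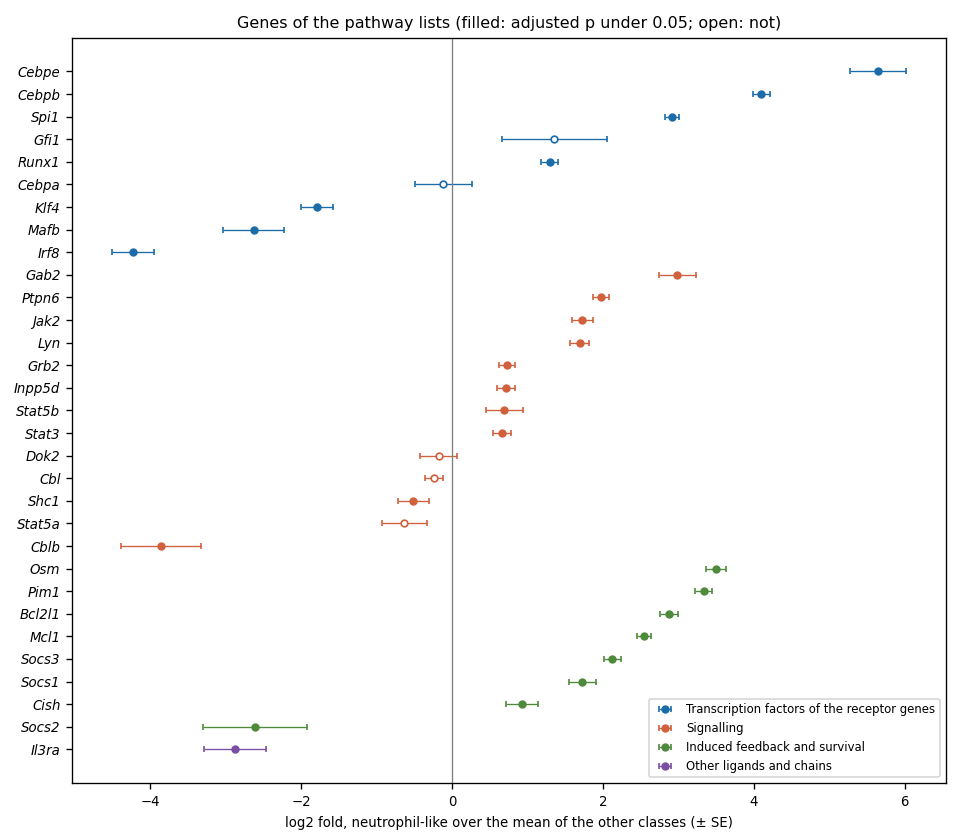
Log2 fold of genes of the 4 lists in the neutrophil-like class over the mean of the other classes (points, edgeR estimates; lines, SE; filled, adjusted p under 0.05). Feedback and survival genes lie to the right apart from Socs2, and the transcription factors spread from -4.23 for Irf8 to 5.65 for Cebpe; Il34, whose error could not be estimated, and 1 signalling gene are not drawn.

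Genes whose profile over the 9 classes was most like each member were listed by Pearson r of log2 levels, among 7325 genes and as a description only, since the classes share libraries. For Csf1 these were Mmp9 (r = 0.99), Ifit1bl2 and Stfa2l1, and for Csf3r they were Slfn4 (0.99), Hnmt and Card19. For Csf1r they were Fcgr1 (0.99), Dram2 and Ms4a6d. Csf2ra was nearest to Spi1 (0.97), Zfp710 and AF251705, Csf2rb to Themis2 (0.98), Alox5ap and Ufsp2, and Csf2rb2 to Cyp4f13 (0.95), Edem2 and Snx18. Csf2, which rests on 115 UMIs, was nearest to Scg5, Xlr4a and Trgv2. Within the family the closest profiles were those of Csf2ra and Csf2rb (r = 0.92), and Csf1 and its receptor Csf1r were unrelated across classes (r = -0.01).

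By the GENCODE vM21 annotation of GRCm38, the protein-coding genes lie at chr3:107741048-107760469 on the minus strand (Csf1), chr11:54247271-54249667 minus (Csf2), chr11:98701263-98703629 plus (Csf3), chr4:126024550-126044440 plus (Csf3r), chr19:61223957-61228429 minus (Csf2ra), chr15:78325752-78353847 plus (Csf2rb) and chr15:78282507-78305721 minus (Csf2rb2). Csf1r lies on chromosome 18.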

How the data were processed

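The authors deposited UMI counts, whole numbers for every gene and barcode, not normalised. The submitters' processing notes name Cell Ranger, Seurat and mm10 without versions; per the file headers the matrices carry software version 3.0.0. The labels mention a 5′ platform as well as a 3′ protocol, so the chemistry is unsettled, and the use of strand in counting is not given in the sources used here.

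Of 14336 barcodes, 14226 were kept: 22 had fewer than 200 genes and 107 exceeded 10% mitochondrial UMIs. After scaling each barcode to 10000 and taking logs, 2000 variable genes, without the 8 members and the list genes, gave 30 principal components, 15 neighbours and Leiden clusters at resolution 1 (scanpy 1.11.5, igraph 0.11.9). A cluster took a class name from at least 3 markers. T-cell-like, neutrophil-like and mononuclear barcodes were clustered again at resolution 0.5, and subclusters with markers of another class (732 barcodes) were left out, a step chosen after seeing the data. Doublet scores served 1 alternative; no doublets were removed otherwise. Classes needed 20 barcodes in each library.

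Per library and class, summed UMIs were tested in edgeR 4.0.16 under R 4.3.3, using TMM, filterByExpr, library as a block and Benjamini-Hochberg adjustment. The sums of a library share its cells, which is where the pairing comes from. DESeq2 1.42.0 was an alternative. Standard errors are the log2 value over the square root of F. The tests were also run on simulated counts. Floors are 3 UMIs; they and thinned shares cover counting error only. The members and lists were chosen with earlier results of these data known. The genes named are the 8 members, up to 4 genes per list with the lowest adjusted p in the neutrophil-like contrast, and the 3 nearest profiles of each member (r of log2(CPM + 10)); Socs2 and Stat5b were named after their values were seen, as a count of 1 and a lost call. A signalling gene that the rule would name and the names of some markers are not reported here.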

Additional observations from a re-analysis of the deposited data

Results flagged for a closer look

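UMIs of the 8 genes also lay in barcodes that no comparison used, and these are given as values. The 732 barcodes with markers of more than 1 class held 298 Csf1, 1057 Csf1r, 10 Csf2, 551 Csf2ra, 503 Csf2rb, 126 Csf2rb2 and 596 Csf3r UMIs. The 101 unnamed barcodes held 11 Csf1, 227 Csf1r, 102 Csf2ra, 78 Csf2rb, 22 Csf2rb2 and 27 Csf3r UMIs. Among T-cell-like barcodes, the subcluster led by Ccl1 and Xcl1 held 37 Csf2 UMIs and the proliferating subcluster 5.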

How the results depend on the processing

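The calls for Csf1, Csf2ra, Csf2rb, Csf2rb2 and Csf3r in the neutrophil-like class, Csf1r in the macrophage-like class and Csf2 in the T-cell-like class kept their direction and call under all alternatives run: library totals, DESeq2 size factors, DESeq2, no low-count filter, no replicate block, stricter barcode filters, highest doublet scores left out, other clustering resolutions, each library left out, and, added after seeing the data, mixed subclusters kept; Csf2 was not tested in the class fit without library 2. The log2 value ranged over these from 5.02 to 5.92 for Csf1 and from 4.87 to 6.27 for Csf3r in the neutrophil-like class, and from 3.59 to 4.61 for Csf1r in the macrophage-like class. Without the replicate block, which is where the pairing by library enters, these were 5.58, 5.33 and 3.78, and 20 pairs were called in the states. The Csf3 difference in CPM was 14.9 and lay between 9.64 and 17.8 under the others; it had no value under the scaling, filter, tool and block alternatives. When barcodes needed 500 genes and no more than 5% mitochondrial counts, 18 pairs could be tested in the neutrophil states in place of 36, and 12 were called in place of 21. Not every state was found under every alternative. Called pairs of the Retnlg, Pdpn and Hspa1a states had a value under 11 alternatives, against 13 for those of the Cxcl3, Siglecf and interferon states. With each library left out, 16 to 21 pairs were called in the states and 1 to 2 in the T-cell subsets. Reversals numbered 5. Csf3r in the Cxcl3 state reversed with library totals (-0.14) and at lower clustering resolution (-0.29). In the cDC2-like class Csf1 reversed at lower resolution (0.16). Csf3r in that class reversed at lower resolution (1.42) and without library 2 (0.10, against -1.65 without library 1). At lower resolution no class was named monocyte-like. The cDC2-like class then had 924 barcodes in place of 365, so its cells were not the same. With the highest doublet scores left out, no class was named cDC1-like or cDC2-like, so the mean of the other classes was taken over fewer classes. The cause of the reversals was not tested. Depth limits Csf2 and Csf3 most, with 115 and 44 UMIs.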
